A study of Mus musculus with 7 samples.

Results

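Transcript levels of 10 genes of the matrix metalloproteinase system were read in 7 RNA-seq libraries of sorted retinal microglia (rMG) from Irf8 KO mice. The genes are 7 matrix metalloproteinases (Mmp2, Mmp8, Mmp9, Mmp12, Mmp13, Mmp14 and Mmp19) and 3 tissue inhibitors of metalloproteinases (Timp1, Timp2 and Timp3), chosen by name, and all 10 were found among the 40743 genes of the deposited table. Mmp2 and Mmp14 were higher in each library from lasered eyes than in each library from unlasered eyes, by about 2.1-fold and 1.8-fold. Mmp8 rose from at most 2 reads per library to between 33 and 257 reads, a call that was lost in 5 of the 12 alternative fits that tested it. Timp2, by far the most abundant inhibitor, was measured at 395 ± 56.0 CPM (SD, n = 3 libraries) without laser and 429 ± 41.3 CPM (SD, n = 4) after laser and did not pass the test.

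The study asked what the transcription factor IRF8 does in rMG of the healthy retina and of the retina after laser-induced choroidal neovascularisation (CNV), a model in which laser spots break the membrane under the retina and new vessels grow in from the choroid. All 7 libraries carry the label Irf8 KO and came from mice with the genotype Irf8-/- and Cx3cr1GFP/+, on a C57BL/6J background without the Crb1 mutation. Both groups are thus described with the same deletion and GFP allele, and they differed in treatment. The 3 unlasered libraries are labelled untreated, and the 4 lasered libraries came from mice 7 days after laser, with 3 to 6 spots per eye. Cells were sorted as CD45low, CD11b+, GFP+, Ly6C- and Ly6G- after pooling retinae of 3 to 4 mice per library, and only the central 70% of the retina was taken from lasered mice. Laser and retinal region therefore cannot be told apart. The study describes the mice sorted in the steady state as adult, and an exact age for these libraries was not found in the sources used here. Libraries of wild-type mice were not analysed here.

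Matrix metalloproteinases are zinc-dependent enzymes that cut collagens, laminins, fibronectin and many cell surface proteins, and most of them are made as inactive proenzymes. TIMPs bind the active site and block it. On the cell surface, a TIMP2 molecule bound to the membrane enzyme MMP14 can capture the proenzyme of MMP2, which a second, free MMP14 then cuts, so that TIMP2 is both an inhibitor and a partner of MMP2 activation. In the eye these enzymes are known for the remodelling of the basement membranes that new vessels cross. RNA levels do not measure active enzyme.

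Total reads per library were between 20427558 and 36022954 without laser and between 37133297 and 45919042 after laser. The lowest level that counting supports was set at 3 reads, which was 0.0653 to 0.147 CPM (counts per gene after scaling of all libraries to a common total), and this floor covers counting error only. Irf8 itself, listed jointly with the overlapping gene Gm20388, was at 489 to 529.9 CPM without laser and 463 to 582 CPM after laser. The table gives whole-gene counts and does not show which exons were read, so the libraries are named by their labels and each direction rests on these labels. The 10 microglia markers (such as Cx3cr1, P2ry12 and Tmem119) were all detected, summed to between 20108 and 24149.9 CPM without laser and between 18783 and 24802.5 CPM after laser, and 0 of the 10 were called by limma (3 at an unadjusted p under 0.05) or edgeR, while DESeq2 called P2ry12 lower. Of 15 rod photoreceptor markers, 0 had a higher mean after laser, with sums of 2251 to 20191 CPM without laser and 321 to 1019.7 CPM after laser. Called lower were 14 of them by limma, against 3.07% of all tested genes, and 15 by edgeR and by DESeq2. The part of rod RNA in the results below was not tested.

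The comparison after laser against without laser was fitted with limma to log2(CPM + 1) of 17496 genes, and a gene was called at a Benjamini-Hochberg adjusted p under 0.05 over all of them. Of the 10 members, 8 passed the filter on low values and were tested, while Timp1 and Timp3 did not. Of the 8, 3 were higher after laser (Mmp2, Mmp8 and Mmp14) and 0 were lower, where 4 and 0 had an unadjusted p under 0.05 (limma). Mmp8 passed the filter only through the lasered libraries, where it is high, so its call is not independent of the filter. Over all tested genes, 3.86% were higher and 3.07% were lower, or 6.93% in either direction. The same 3 members were called higher with edgeR, which called 3.78% of all tested genes higher, and with DESeq2, which called 6.73%. Every lasered library lay above every unlasered library for 4 members (Mmp2, Mmp8, Mmp14 and Mmp19), and the same was true of 10.4% of all tested genes. When all 10 members entered the fit, without a filter, 2 were called higher (Mmp2 and Mmp14), and their median log2 fold change was 0.67 against -0.02 over all 38566 genes. In pools of cells, fewer cells that express a gene and less RNA per cell cannot be told apart.

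**Figure D1:**
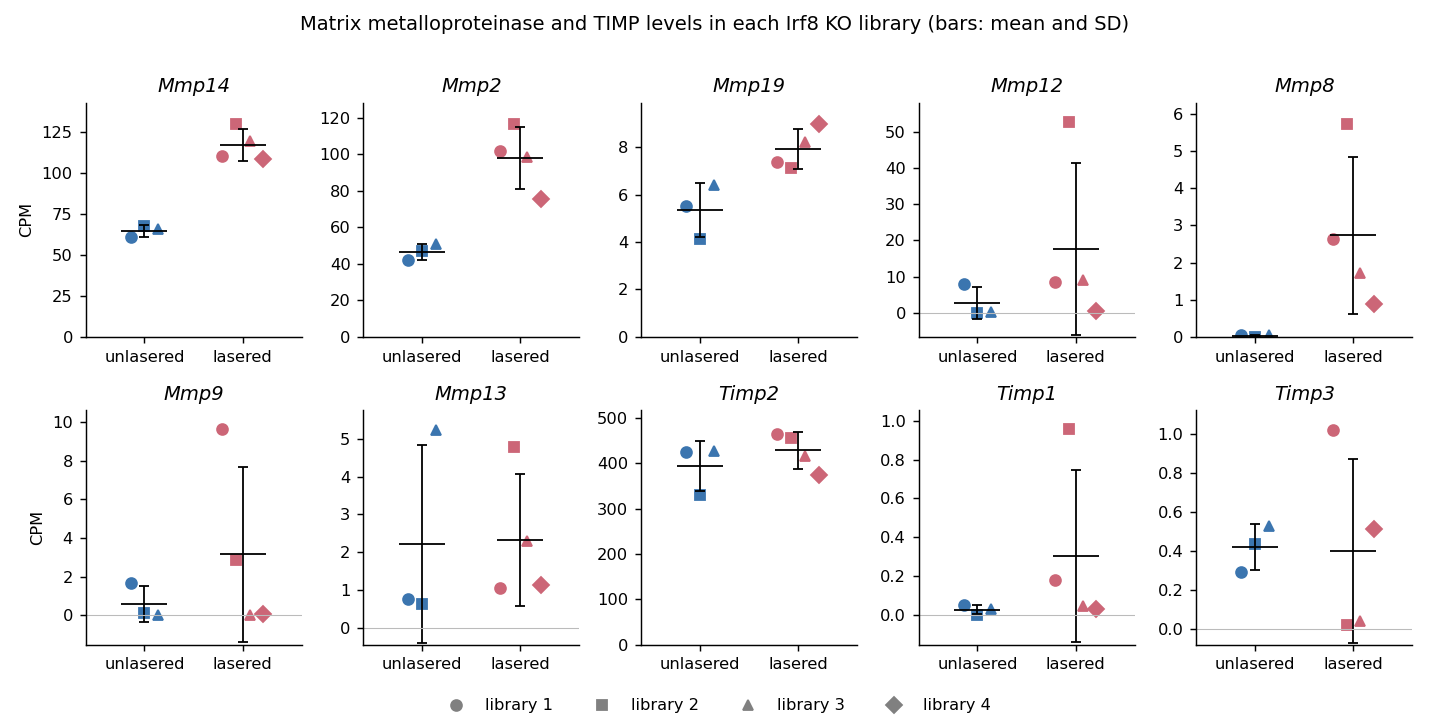
Level of each of the 10 genes in CPM (vertical axis, own linear scale per gene) in the 3 unlasered and 4 lasered Irf8 KO libraries; symbols are libraries, and bars give the mean and SD. For Mmp14, Mmp2, Mmp19 and Mmp8 the lasered libraries lie above the unlasered libraries, whereas for the other genes the groups overlap.

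Mmp14 encodes the membrane-anchored metalloproteinase that cuts collagen at the cell surface and activates the proenzyme of MMP2. The gene lies on chromosome 14 of GRCm38, 54431612 to 54445364, on the plus strand (ENSMUSG00000000957, protein-coding). Mmp14 was read at 60.7, 67.5 and 66.1 CPM in unlasered libraries 1, 2 and 3 and at 110.1, 129.7, 119.6 and 109 CPM in lasered libraries 1, 2, 3 and 4. The 3 unlasered libraries lay close together, and the lowest lasered library exceeded the highest of them. The mean rose from 64.7 ± 3.60 CPM (SD, n = 3) to 117 ± 9.75 CPM (SD, n = 4), for which the fit gave a log2 fold change of 0.84 (SE, the standard error, 0.12, 95% interval 0.57 to 1.12, adjusted p = 0.0089 from limma). Between 1239 and 5825 reads per library stand behind these values.

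The promoter of Mmp14 is shown because its window holds letters that are known to be bound by complexes of IRF8 with ETS-family factors such as PU.1. All 7 libraries carry the label Irf8 KO, so the comparison after laser against without laser does not bear on IRF8 at this site. The sequence was taken from RefSeq (GRCm38.p6, chr14:54431348-54431597, plus strand) and runs 5′ to 3′ over the 250 bases before the RefSeq start. Capitals mark a match to the ETS-IRF composite element (GGAA and GAAA with any 2 bases between them), which begins 208 bases before the start, and a pair of adjacent GC boxes (GGGCGG), which begin 19 and 13 bases before it.

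Mmp14: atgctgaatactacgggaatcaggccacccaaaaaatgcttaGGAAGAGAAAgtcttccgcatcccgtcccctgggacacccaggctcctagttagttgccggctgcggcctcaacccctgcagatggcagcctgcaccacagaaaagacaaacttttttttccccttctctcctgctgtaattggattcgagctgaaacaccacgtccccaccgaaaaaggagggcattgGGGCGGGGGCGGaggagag

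Searched on both strands, the ETS-IRF letters occurred in 2.72% and the GC box in 35.7% of 32851 promoter windows of 300 bases. These matches are descriptions of the sequence and were not tested for binding.

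Mmp2 encodes gelatinase A, a secreted enzyme that cuts denatured collagen and type IV collagen of basement membranes. It lies on chromosome 8, 92827291 to 92853420, on the plus strand (ENSMUSG00000031740, protein-coding). Mmp2 was read at 42.2, 47.0 and 51.0 CPM in unlasered libraries 1 to 3 and at 102, 117, 98.6 and 75.4 CPM in lasered libraries 1 to 4. All lasered libraries exceeded all unlasered ones, and lasered library 4 was the lowest of its group. The mean rose from 46.7 ± 4.39 CPM (SD, n = 3) to 98.1 ± 17.0 CPM (SD, n = 4), and the fitted log2 fold change was 1.04 (SE 0.17, 95% interval 0.67 to 1.41, adjusted p = 0.0115 from limma). Mmp2 and Mmp14, the enzyme and its activator, were both called with each library left out in turn, with adjusted p between 0.0116 and 0.0432 for Mmp2 and between 0.0151 and 0.0380 for Mmp14 (limma).

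Mmp9 encodes gelatinase B, the second enzyme of this substrate group, which myeloid cells store and secrete (chromosome 2, 164940780 to 164955850, ENSMUSG00000017737). Its reads numbered 34, 3 and 1 in unlasered libraries 1 to 3 and 426, 128, 0 and 3 in lasered libraries 1 to 4, or 1.66, 0.0876 and 0.0278 CPM against 9.65, 2.85, 0 and 0.0808 CPM. In each group some libraries were at or under the floor of 3 reads, and the groups overlapped. Mmp9 did not pass the test (log2 fold change 0.84, SE 0.78, adjusted p = 0.579 from limma), and its 95% interval ran from -0.92 to 2.61.

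Mmp8 encodes the collagenase that neutrophils store in granules and that cuts fibrillar collagen (chromosome 9, 7558456 to 7568485, ENSMUSG00000005800). Mmp8 had 1, 0 and 2 reads in unlasered libraries 1 to 3 and 116, 257, 79 and 33 reads in lasered libraries 1 to 4, the latter equal to 2.63, 5.72, 1.72 and 0.889 CPM. All unlasered libraries were under the floor, and all lasered libraries were above it, with a more than 6-fold range among them. Relative to the library totals, the pooled reads were 85.2 times higher after laser, with a 95% exact counting interval of 29.0 to 415 that leaves out the spread between libraries. The gene was called higher (log2 fold change 1.69 on log2(CPM + 1), SE 0.38, adjusted p = 0.0337 from limma), but it passed the filter only through the lasered libraries, and with a pseudocount of 0.1 the log2 fold change was 4.13. The call was lost without the filter (adjusted p = 0.0796) and without unlasered library 1, 2 or 3 (adjusted p = 0.0732, 0.0782 and 0.0609, limma), and without lasered library 1, 2 or 3 Mmp8 was not tested.

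Because MMP8 and MMP9 are known as granule enzymes of neutrophils, the neutrophil markers are given beside them. Ly6g, Mpo and Ngp had at most 3 reads in every library, and Elane had 0 reads in 5 of 7 libraries and 4 and 15 reads in lasered libraries 2 and 3. S100a8 had 147, 3 and 32 reads in unlasered libraries 1 to 3 and 77, 308, 13 and 10 reads in lasered libraries 1 to 4. S100a9 had 71, 6 and 0 reads against 18, 53, 0 and 0 reads. Camp and Ltf had between 4 and 27 reads per library. The list of 10 genes summed to 302 to 467 CPM without laser and 367 to 437 CPM after laser, nearly all of it Csf3r, a receptor gene that microglia also express. Without Csf3r the sums were 0.847 to 11.7 CPM against 1.80 to 13.8 CPM. Of the 3 markers tested, Cxcr2, a chemokine receptor gene, was called higher after laser (0.0292 to 0.147 CPM against 1.05 to 12.9 CPM, adjusted p = 0.0305 from limma). S100a8 (log2 fold change -0.07) and Csf3r (0.16) were tested and not called. Like Mmp8, Cxcr2 had at most 3 reads in each unlasered library and passed the filter only through the lasered libraries. The monocyte list summed to 82.8 to 283 CPM against 99.99 to 276 CPM, and 0 of its 6 tested genes were called by limma (1 at an unadjusted p under 0.05) or edgeR, while DESeq2 called Ccr2 higher. Its receptor gene Ccr2 was at 5.63, 6.37 and 14.2 CPM without laser and at 81.5, 128, 19.7 and 7.57 CPM after laser, and thus had the same order of lasered libraries (2, 1, 3, 4) as Mmp8. The list had a median log2 fold change of -0.23, with Ccr2 at 2.03, Itga4 at -0.15, Chil3 at -0.31, Plac8 at -0.88 and F10 at -0.92. The part of other myeloid cells in the Mmp8 reads was not tested.

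Mmp13 encodes a further collagenase, with a broad range of collagen substrates (chromosome 9, 7272514 to 7283331, ENSMUSG00000050578). Mmp13 was read at 0.783, 0.643 and 5.22 CPM in unlasered libraries and at 1.06, 4.79, 2.31 and 1.13 CPM in lasered libraries. A single unlasered library held the highest value of all 7, and the groups overlapped. The means of 2.21 ± 2.60 CPM (SD, n = 3) and 2.32 ± 1.74 CPM (SD, n = 4) differed by less than either SD (log2 fold change 0.20, 95% interval -0.96 to 1.37, adjusted p = 0.855 from limma).

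Mmp12 encodes macrophage elastase, which cuts elastin and is made by activated macrophages (chromosome 9, 7344381 to 7369499, ENSMUSG00000049723). Mmp12 was read at 7.98, 0.0584 and 0.250 CPM in unlasered libraries 1 to 3 and at 8.43, 52.6, 8.97 and 0.539 CPM in lasered libraries 1 to 4. Lasered library 2 held most of the lasered signal, unlasered library 1 was close to lasered libraries 1 and 3, and the groups overlapped. The means of 2.76 ± 4.52 CPM (SD, n = 3) and 17.6 ± 23.6 CPM (SD, n = 4) had SDs larger than themselves, and the log2 fold change of 2.04 did not pass the test (SE 1.11, 95% interval -0.47 to 4.55, adjusted p = 0.318 from limma). Mmp12 and Mmp13 lie near Mmp8 on chromosome 9, and 2.17% of the exonic bases of Mmp12 overlap those of Mmp1b on the other strand. Mmp1b had 3 to 10 reads per library.

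Among the 7 members with a RefSeq window, Mmp12 and Mmp13 are those with a match to the AP-1 letters TGANTCA, the site of FOS and JUN proteins. Mmp12 has 2 windows, and its match lies in the downstream window. The matches were not tested for binding or against the levels. The 60 bases before the start of Mmp13 (chr9:7272454-7272513) and before the downstream start of Mmp12 (chr9:7347314-7347373) are printed from the plus strand of GRCm38.p6, with the AP-1 letters in capitals.

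Mmp12: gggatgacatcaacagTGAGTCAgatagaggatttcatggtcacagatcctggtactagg

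Mmp13: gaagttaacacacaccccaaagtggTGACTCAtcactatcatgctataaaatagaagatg

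The match began 44 bases before the start of Mmp12 and 35 bases before that of Mmp13, and 7.81% of the 32851 windows hold these letters on either strand. Windows were found for 7 of the 10 members, and Mmp2, Mmp9 and Mmp19 had no entry.

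Mmp19 encodes a metalloproteinase that cuts basement membrane proteins and is expressed in many tissues at rest (chromosome 10, 128790910 to 128800824, ENSMUSG00000025355). Mmp19 was read at 5.53, 4.15 and 6.38 CPM in unlasered libraries and at 7.36, 7.13, 8.23 and 8.97 CPM in lasered libraries. The groups did not overlap, but the gap between them was small. The means were 5.35 ± 1.13 CPM (SD, n = 3) and 7.92 ± 0.843 CPM (SD, n = 4), and the gene did not pass the test (log2 fold change 0.50, SE 0.19, adjusted p = 0.160 from limma). Of its exonic bases, 22.3% overlap Tmem198b on the other strand. Since the library kit does not mark strand, reads of the pair cannot be told apart there. Tmem198b was read at 5.58 to 7.63 CPM without laser and at 5.30 to 8.25 CPM after laser.

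**Figure D2:**
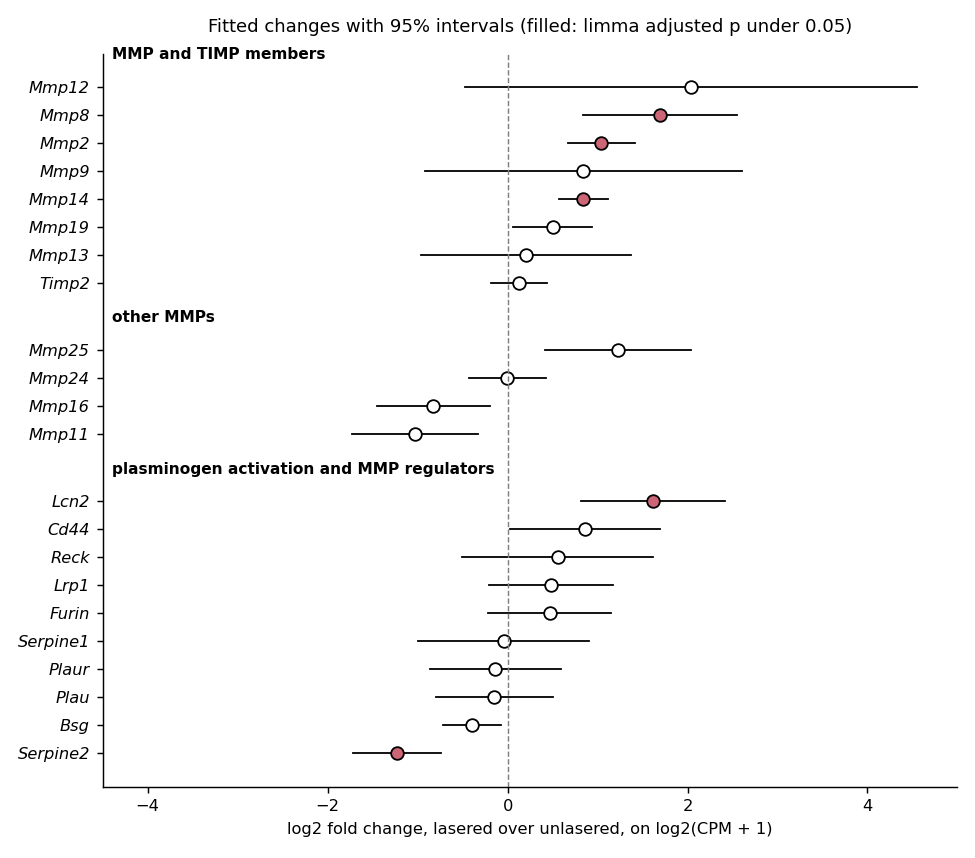
Fitted log2 fold change of lasered over unlasered libraries with its 95% interval (horizontal axis) for the 8 members tested, for other metalloproteinase genes and for regulators of metalloproteinases and plasminogen; filled points have an adjusted p under 0.05 (limma). Mmp8, Mmp2, Mmp14 and Lcn2 lie to the right of 0 and Serpine2 to the left, each called, while the intervals of Mmp12, Mmp9 and Mmp13 are wide and include 0.

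Timp2 encodes the inhibitor that also takes part in MMP2 activation (chromosome 11, 118301069 to 118355740, minus strand, ENSMUSG00000017466). Timp2 was read at 425, 329.8 and 429 CPM in unlasered libraries 1 to 3 and at 466, 457, 417 and 376 CPM in lasered libraries 1 to 4, and it ranked 281 among all genes by its mean. The groups overlapped, and unlasered library 2 was the lowest. The log2 fold change was 0.13 (SE 0.14, adjusted p = 0.646 from limma). Its 95% interval of -0.18 to 0.43 ends below the estimates of 0.84 for Mmp14 and 1.04 for Mmp2, although the difference between the genes was not itself tested.

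Timp1, a soluble inhibitor that many cells induce in inflammation (chromosome X, 20870166 to 20874735, ENSMUSG00000001131), had 1, 0 and 1 reads in unlasered libraries and 8, 43, 2 and 1 reads in lasered libraries. It was above the floor in lasered libraries 1 and 2 only and was not tested. Timp3, the inhibitor that binds to the matrix and is abundant in the membrane under the retina (chromosome 10, 86300372 to 86349506, ENSMUSG00000020044), was read at 0.294 to 0.527 CPM without laser and at 0.0223 to 1.02 CPM after laser. It had between 1 and 45 reads per library, with overlapping groups, and 21.3% of its exonic bases overlap Syn3 on the other strand.

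To compare levels between genes, CPM was divided by the exonic length of each gene in kilobases. On this scale Timp2 was the highest of the 10 genes in each of the 7 libraries and made up 99.1% to 99.9% of the summed TIMP level. Mmp2 and Mmp14 came next, and together they made up 79.8% to 94.6% of the summed level of the 7 metalloproteinases. The order of Mmp2 and Mmp14 depends on the length that is used, since the ratio of Mmp14 to Mmp2 was 0.612 to 0.815 with all exons and 1.03 to 1.37 with the longest transcript.

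The metalloproteinase sum was 26.1, 26.7 and 30.0 CPM per kilobase in unlasered libraries 1 to 3 and 56.1, 70.6, 54.4 and 44.0 CPM per kilobase in lasered libraries 1 to 4. The groups did not overlap, with means of 27.6 ± 2.10 (SD, n = 3) and 56.3 ± 10.9 (SD, n = 4) CPM per kilobase. The TIMP sum was 101 ± 14.4 CPM per kilobase (SD, n = 3) without laser and 110.5 ± 10.9 CPM per kilobase (SD, n = 4) after laser, with overlapping groups. Metalloproteinases thus made up 19.3% to 24.0% of the sum of both families without laser and 31.3% to 37.4% after laser.

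**Figure D3:**
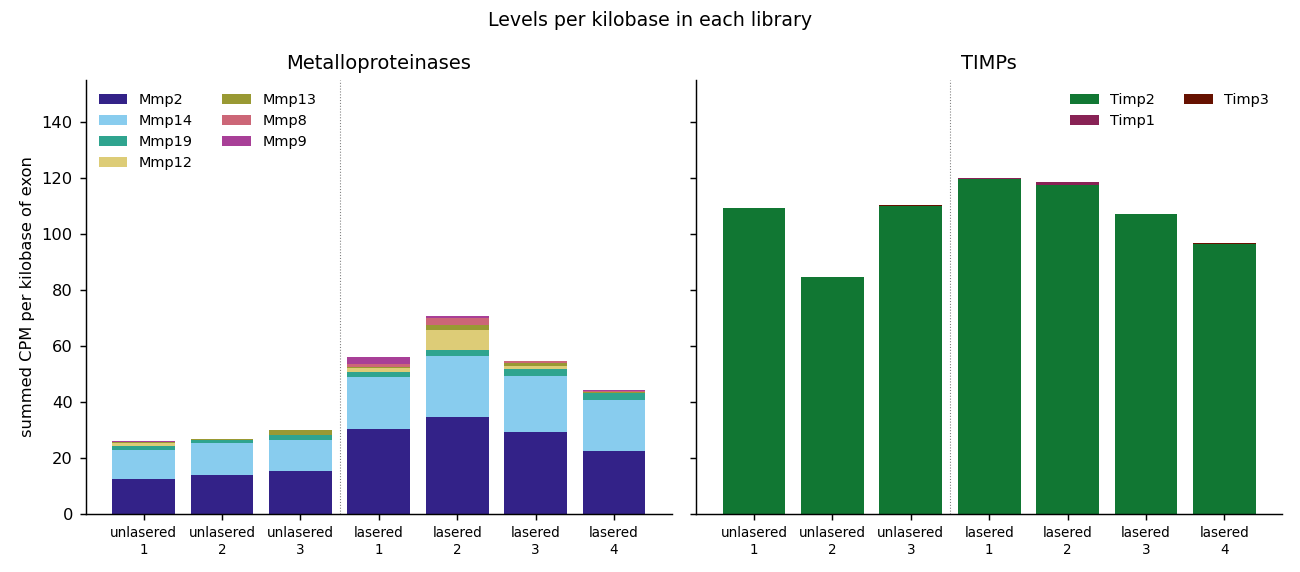
Summed level in CPM per kilobase of exon (vertical axis, from 0) of the 7 metalloproteinase genes (left) and the 3 TIMP genes (right) in each of the 7 libraries, stacked by gene. The metalloproteinase bars reach 26.1 to 30.0 without laser and 44.0 to 70.6 after laser and are mostly Mmp2 and Mmp14, whereas the TIMP bars are nearly all Timp2.

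The ratio of Timp2 to Mmp2, per kilobase, was 8.71, 6.08 and 7.28 in unlasered libraries 1 to 3 and 3.96, 3.39, 3.66 and 4.31 in lasered libraries 1 to 4. For Timp2 to Mmp14 the ratios were 10.7, 7.48 and 9.92 against 6.47, 5.39, 5.34 and 5.29. Both ratios were lower in each lasered library than in each unlasered library, while Timp2 transcripts remained above those of either enzyme in all 7 libraries. A ratio within a library does not depend on how libraries are scaled. With the length of the longest transcript the ratios of Timp2 to Mmp2 were 5.83 to 8.36 against 3.25 to 4.14, and those of Timp2 to Mmp14 were lower, at 4.27 to 6.12 against 3.02 to 3.69, with groups that did not overlap. These ratios are given as values without a test.

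**Figure D4:**
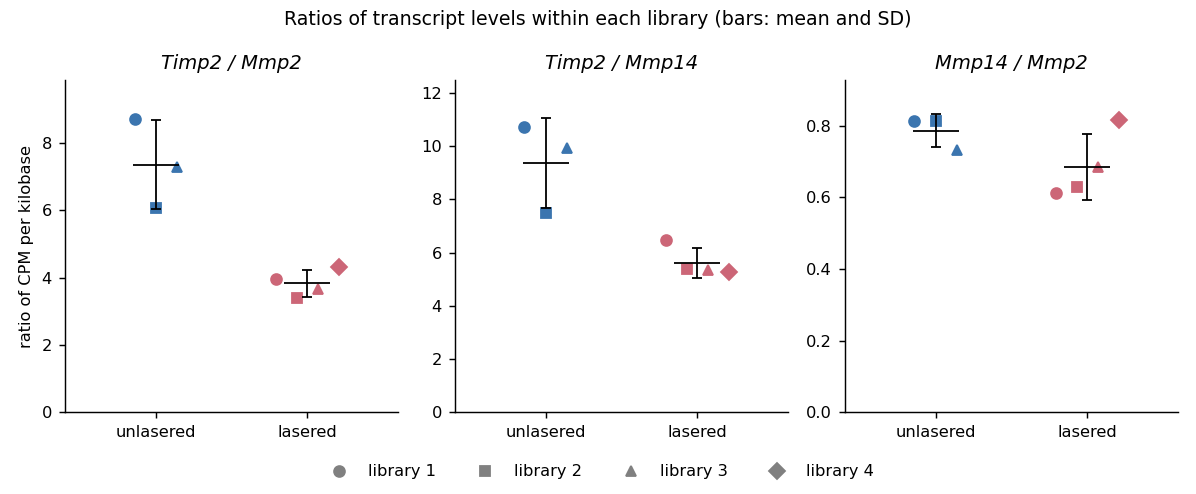
Ratios of Timp2 to Mmp2, Timp2 to Mmp14 and Mmp14 to Mmp2 in CPM per kilobase (vertical axes, from 0) in each unlasered and lasered library; symbols are libraries, and bars give the mean and SD. The ratio of Timp2 to Mmp2 is 6.08 to 8.71 without laser and 3.39 to 4.31 after laser, whereas the groups overlap for Mmp14 to Mmp2.

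Of 17 further genes of both families (16 metalloproteinases and Timp4), 4 passed the filter and 0 were called by limma, with 1 higher and 2 lower at an unadjusted p under 0.05. On recovered reads, edgeR called Mmp25 higher, and DESeq2 called Mmp25 higher and Mmp11 and Mmp16 lower. Mmp25 passed the filter only through the lasered libraries, and Mmp11 and Mmp16 only through the unlasered libraries. Their calls are thus not independent of the filter. The highest mean in this list was that of Mmp24, a membrane-type enzyme gene of neurons, at 5.39 ± 1.11 CPM (SD, n = 3) and 5.33 ± 0.509 CPM (SD, n = 4). Mmp25, a membrane-type enzyme gene of leukocytes, and Mmp11 were singled out after their values were seen. Mmp25 was at 0.438 to 0.500 CPM without laser and 0.943 to 5.57 CPM after laser (adjusted p = 0.0777 from limma), and Mmp11 was at 1.33 to 4.12 CPM against 0.131 to 0.943 CPM (adjusted p = 0.0842 from limma). Neither passed the limma test, although the groups did not overlap for either. Over all tested genes, every lasered library lay above every unlasered library for 10.4% and under it for 10.7%. Mmp3, Mmp10 and Mmp23 had no library above the floor.

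Of 16 genes of plasminogen activation and metalloproteinase control, 10 were tested, 1 was higher and 1 was lower. Lcn2, which encodes a lipocalin that binds MMP9, was read at 2.35, 0.292 and 0.305 CPM without laser and 6.32, 3.43, 4.64 and 3.91 CPM after laser (log2 fold change 1.62, SE 0.36, adjusted p = 0.0320 from limma), and edgeR did not call it. Lcn2 needed the lasered libraries to pass the filter, and it was not called without the filter. Serpine2, which encodes an inhibitor of thrombin and plasminogen activators, was read at 184, 129.5 and 139 CPM without laser and at 45.7, 62.8, 63.0 and 87.0 CPM after laser. It fell in each lasered library relative to each unlasered library (log2 fold change -1.23, SE 0.22, adjusted p = 0.0160 from limma). The highest mean over the 7 libraries was that of Bsg, which encodes an inducer of metalloproteinases, at 513 ± 98.1 CPM (SD, n = 3) against 384 ± 16.8 CPM (SD, n = 4, adjusted p = 0.137 from limma). Among the lasered libraries alone, the highest mean was that of the scavenger receptor gene Lrp1. It was at 340 ± 189.6 CPM (SD, n = 3) without laser and 437 ± 74.3 CPM (SD, n = 4) after laser. The groups overlapped, and Lrp1 did not pass the test (adjusted p = 0.396 from limma). The urokinase gene Plau and its receptor gene Plaur were tested and not called. The median log2 fold change was 0.21 over the 10 tested genes and -0.09 over all 16 without the filter, against -0.01 and -0.02 over all genes.

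Of 16 ADAM and ADAMTS proteinase genes, which encode related shedding and matrix-cutting enzymes, 10 were tested and 0 were called by limma (3 higher at an unadjusted p under 0.05) or edgeR, while DESeq2 called Adam8 higher. Adam8 was at 0.245, 0.380 and 1.53 CPM without laser and needed the lasered libraries to pass the filter. Its call is thus not independent of the filter. The highest mean was that of the sheddase gene Adam10, at 361 ± 86.3 CPM (SD, n = 3) and 402 ± 31.9 CPM (SD, n = 4). The median log2 fold change was 0.17 over the 10 tested genes and -0.15 over all 16 without the filter.

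Of 18 genes that encode substrates of these enzymes, 8 were tested, 2 were higher and 3 were lower. Spp1, which encodes osteopontin, rose from 52.3 ± 9.26 CPM (SD, n = 3) to 1042 ± 446 CPM (SD, n = 4), (log2 fold change 4.18, SE 0.34, adjusted p = 0.0015 from limma), and a part of its reads was listed jointly with Gm42793. Fn1, which encodes fibronectin, was read at 41.1, 65.6 and 288 CPM against 776, 525, 593 and 248 CPM, and it passed although the groups overlapped (log2 fold change 2.41, SE 0.61, adjusted p = 0.0485 from limma), and neither edgeR nor DESeq2 called it. Vtn, which encodes vitronectin, was read at 31.6, 268 and 82.4 CPM against 12.1, 7.51, 12.7 and 2.29 CPM (log2 fold change -3.42, SE 0.70, adjusted p = 0.0261 from limma), and its highest library was the unlasered library with the highest rod sum. Col5a1, a fibrillar collagen gene, and Hspg2, the perlecan gene, were called lower (adjusted p = 0.0196 and 0.0401 from limma). They were at 1.05 to 1.66 CPM and 1.17 to 1.71 CPM without laser and at 0.0539 to 0.200 CPM and 0.162 to 0.445 CPM after laser, and both passed the filter only through the unlasered libraries. The other members of this list are mostly collagen and laminin genes, and 10 of the 18 did not pass the filter. Of the 18, 3 had a higher mean after laser. The median log2 fold change was -0.90 over the 8 tested genes and -0.40 over all 18 without the filter. Over all genes these medians were -0.01 and -0.02.

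The genes whose levels followed the members most closely over the 7 libraries are given as a description, by Pearson correlation on log2(CPM + 1) among tested genes of at least 10 CPM on average. All points share the division into groups. For Mmp2 they were Pld3 (r = 0.993), Pabpc1 (r = 0.992) and Lgals3bp (r = 0.986), and for Mmp8 they were Ago1 (r = 0.991), H2-Q7 (r = 0.988) and Npc1 (r = 0.988). For Mmp14 they were Pgap2 (r = 0.996) and the pseudogenes Rpsa-ps12 (r = 0.995) and Rpsa-ps9 (r = 0.994), whose reads are uncertain because near-identical copies exist. For Timp2 they were Ube2f (r = 0.977), Myof (r = 0.974) and Gm5431 (r = 0.970).

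Markers of cells other than myeloid cells are given for all lists that were set. Retinal pigment epithelium markers summed to 23.8 to 25.9 CPM without laser and 20.3 to 25.4 CPM after laser, with Lrat at or under the floor, and endothelial markers to 17.0 to 63.4 CPM against 19.4 to 31.9 CPM, with Cldn5 under the floor. Fibroblast and pericyte markers, cells that are known to express Mmp2 and Mmp14, summed to 3.39 to 7.27 CPM against 22.2 to 40.5 CPM. Cspg4, a pericyte and progenitor gene, was called higher (2.25 ± 1.77 CPM, SD, n = 3, against 25.4 ± 8.06 CPM, SD, n = 4, adjusted p = 0.0060 from limma), and without it, a choice made after its values were seen, the sums were 2.77 to 4.50 CPM against 1.79 to 3.42 CPM, with Lum at or under the floor and Col1a1 at 0 to 2 reads in every lasered library. Cspg4 needed the lasered libraries to pass the filter. Of the 7 genes left without Cspg4, 1 had a higher mean after laser. This was Rgs5, with 5, 2 and 3 reads without laser and 69, 4, 48 and 2 reads after laser, and it was not tested. Mueller glia and astrocyte markers without Apoe summed to 646 to 944 CPM against 279.8 to 591 CPM. Dkk3 was called lower (164 to 225 CPM against 91.3 to 113 CPM, adjusted p = 0.0138 from limma). Gfap was called higher (0 to 1.53 CPM against 2.18 to 3.87 CPM, adjusted p = 0.0311 from limma), but not by edgeR or DESeq2. Gfap had 0, 0 and 55 reads in the unlasered libraries and needed the lasered libraries to pass the filter. It was not called without the filter. Border macrophage markers summed to 1579 to 2197 CPM against 1112 to 1627 CPM, with 1 of 7 tested genes lower (Pf4). The part of these cells in the Mmp2 and Mmp14 levels was not tested.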

How the data were processed

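RNA of sorted rMG was made into cDNA libraries with a SMARTer kit and Nextera XT, which does not mark strand, and sequenced. The authors removed adapters and duplicate reads (cutadapt, FastUniq), mapped with bowtie2, which does not split reads across introns, to GRCm38 (the submitters' processing notes), and used HTSeq with the Ensembl 90 annotation to count reads on each gene. The deposited values are headed TPM but are CPM: in a library all values, for long and short genes, are multiples of the value of 1 read. Whole reads were recovered for 100% of the values (tolerance 0.1 read) and summed to 20427558 to 45919042 per library, so the floor of 3 reads lies at 0.0653 to 0.147 CPM. Reads on overlapping genes are listed jointly for 4492 genes, but for none of the 10 members. Coordinates are from GENCODE M21 (GRCm38), which matched 99.8% of genes.

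Libraries were grouped by their GEO titles. The groups were compared with limma 3.58.1 (R 4.3.3) on log2(CPM + 1), with trend and robust empirical Bayes settings, two-sided, over 17496 genes of at least 1 CPM in at least 3 libraries, with Benjamini-Hochberg adjustment over all of them. Each library is a pool of mice, and p-values measure the spread between these libraries. On simulated data with 200 genes changed 2-fold, 60% were called (17689 genes in the step), and 100% of those changed 4-fold (17603 genes). With no changed genes, 0 were called. The simulation gave every gene the same dispersion, added no differences between libraries beyond their totals, and changed no genes of low mean level. Its shares hold for that setting only. Alternatives were other scalings, pseudocounts, filters, single-gene entries, edgeR 4.0.16 and DESeq2 1.42.0 on recovered reads, reads thinned to the lowest total, the replicate number as a block and leaving out each library. Values were summarised and drawn in Python 3.11.15 (scipy 1.17.1, pandas 2.3.3, matplotlib 3.10.9, numpy 2.4.6).

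The members and gene lists were chosen with earlier results of these data known. Named genes are the 10 members, the called genes of each list (at most 6), the highest gene of each list, and the 3 genes most like each called member and Timp2; genes outside this rule were named to describe cell type markers or after their values were seen. The authors' fold changes are not used here. Promoter windows are from RefSeq (GRCm38.p6), and motifs were searched as exact letters on both strands.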

Additional observations from a re-analysis of the deposited data

Results flagged for a closer look

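Among 27 levels tested over the 4 lasered libraries, 3 had a single library that lay far from the others by Dixon's test, and chance alone gives about 1 in 20. Mmp12 was at 52.6 CPM in lasered library 2, against 8.43, 8.97 and 0.539 CPM in the others. Timp1 was highest in the same library, at 0.958 CPM against 0.181, 0.0436 and 0.0269 CPM, the latter pair at 2 and 1 reads. Irf8 was at 582 CPM in lasered library 4, against 463, 465 and 475 CPM in the others.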

How the results depend on the processing

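Mmp2 and Mmp14 were higher after laser and past the threshold in 15 of 16 alternative fits each, and Mmp8 in 7 of the 12 that tested it. The thresholds of the study's methods are not among these fits, and 0 members passed them. Among the 16 fits, the exception for Mmp2 and Mmp14 was the replicate number as a block. Same-numbered libraries did not deviate together (correlations of -0.18, -0.13 and -0.02 across genes), and no label ties a number to a shared batch or animal. With this block, 2 genes were higher and 1 lower over all genes, 0 members were higher (adjusted p = 0.0784 for Mmp2, 0.0878 for Mmp14 and 0.0914 for Mmp8, limma), and 1 list gene was higher and 0 lower.

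Over all genes, 676 were higher and 537 lower. Without a filter the counts were 212 and 173, at a minimum of 10 CPM 491 and 161, with DESeq2 1177 and 1141, with median-of-ratios scaling 935 and 504 (the median of all genes moved from -0.01 to 0.06), and with the thresholds of the study's methods 22 and 32, among them 0 members. Leaving out each library gave 150 to 815 higher and 114 to 433 lower genes. The counts were 367 and 407 without unlasered library 1, 362 and 301 without unlasered library 2, 197 and 220 without lasered library 1, 150 and 114 without lasered library 2, 278 and 158 without lasered library 3, and 538 and 259 without lasered library 4. These fits gave 2 to 3 members, 1 to 4 list genes higher (3 with all libraries) and 0 to 3 lower (4 with all). The list counts were 5 higher with a pseudocount of 0.1 and with DESeq2, 1 and 2 without a filter, 1 and 1 at a minimum of 10 CPM, and 2 lower when thinned to the smallest library. The log2 fold change of Mmp13 turned to -0.08, -0.14 and -0.11 without unlasered library 1, unlasered library 2 and lasered library 2 (0.82 without unlasered library 3). The metalloproteinase sums per kilobase were 38.4 and 77.3 CPM with the longest transcript. The cause of these shifts was not tested.

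Depth limits Mmp8, Mmp9, Mmp12, Timp1 and Timp3, each at or under 3 reads in at least 1 library.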
